A study of Mus musculus with 24 samples.

Results

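The genes followed here are those of MHC class II antigen presentation in mouse lung: H2-Aa, H2-Ab1, H2-Eb1, Cd74, H2-DMa, H2-DMb1, H2-Ob, Ciita and Ctss. A probe set of the Affymetrix array was taken as a member's when the platform's gene symbol for it was that member. Of the 9 genes listed, 7 had a probe set with a single gene symbol, and these 7 were tested among 8008 genes, out of 12393 genes with such a probe set. H2-DMb1 was represented only by probe sets shared with its near-identical neighbour H2-DMb2, and H2-Ob only by a dim probe set shared with Gm20506, so both are described without being counted.

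The 24 arrays came from left lung lobes of individual male mice of the strains C3H/HeJ and C3H/HeOuJ, called HeJ and OuJ below. All cells of HeJ mice carry a dominant negative Tlr4, the receptor for bacterial lipopolysaccharide, and OuJ mice, the related strain with a sufficient Tlr4, are their control. In each strain groups of 3 mice breathed the oxidant gas ozone for 6, 24 or 48 h, and 3 mice breathed air, with 1 array per mouse. The study's stated subject is the transcript response to ozone when Tlr4 is deficient. Neither ozone concentration nor age is given in the sources used here.

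MHC class II molecules display peptides from endocytosed proteins to CD4+ T cells. An alpha and a beta chain assemble around the invariant chain Cd74, which blocks the peptide groove until cathepsin S (Ctss) cuts it down to a fragment, and H2-DM then exchanges that fragment for peptide, a step that H2-O restrains. Ciita is the coactivator that most class II promoters need. In the lung, B cells, dendritic cells, macrophages and alveolar type 2 cells all make class II molecules, so a whole lobe mixes several sources, and fewer cells of a type and less RNA per cell cannot be told apart in these arrays.

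Ciita does not bind DNA itself and acts through factors held at an X box, bound by the RFX complex, and a Y box, bound by NF-Y. The promoter windows below show which of these letters occur at genes whose transcripts are described next, and include Ctss, whose mean level was not lower after ozone at 24 and 48 h. The RefSeq promoter table of build GRCm38.p6 (250 bases before to 50 after a gene's start) held windows for 6 of the 9 genes that could be read here, and the 300 bases were searched on both strands for the X box core, spelled AG, any 2 bases, AC, any base and GATG, and for the Y box CCAAT. Capitals mark matches on either strand, and no X box match overlapped a Y box match.
H2-Eb1, chr17:34305617-34305916, plus strand: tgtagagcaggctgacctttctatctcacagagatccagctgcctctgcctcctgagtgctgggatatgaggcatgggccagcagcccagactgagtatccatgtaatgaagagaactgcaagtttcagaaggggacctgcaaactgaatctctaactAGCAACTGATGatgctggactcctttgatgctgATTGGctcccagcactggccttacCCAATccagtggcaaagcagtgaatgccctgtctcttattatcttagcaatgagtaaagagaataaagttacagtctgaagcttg
H2-DMb1, chr17:34153076-34153154, plus strand, the stretch of its window around both boxes: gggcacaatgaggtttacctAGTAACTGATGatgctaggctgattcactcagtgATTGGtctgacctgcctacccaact
H2-Aa, chr17:34287774-34288073, minus strand: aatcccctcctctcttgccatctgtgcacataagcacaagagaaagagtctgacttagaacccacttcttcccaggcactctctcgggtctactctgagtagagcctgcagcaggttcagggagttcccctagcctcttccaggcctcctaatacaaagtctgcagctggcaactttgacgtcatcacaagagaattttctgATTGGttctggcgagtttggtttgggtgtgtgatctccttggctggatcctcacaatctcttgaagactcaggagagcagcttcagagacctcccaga
Ctss, chr3:95526536-95526835, plus strand: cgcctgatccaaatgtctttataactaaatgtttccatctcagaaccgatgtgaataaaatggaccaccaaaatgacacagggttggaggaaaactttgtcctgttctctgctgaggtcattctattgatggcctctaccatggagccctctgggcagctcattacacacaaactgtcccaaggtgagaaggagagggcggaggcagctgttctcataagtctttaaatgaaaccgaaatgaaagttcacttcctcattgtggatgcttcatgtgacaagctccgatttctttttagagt
The H2-Eb1 window held 1 X box match and 2 Y box matches, with 22 bases between the X box and the nearer Y box. The H2-DMb1 window held 1 of each, 23 bases apart, and H2-Aa held a Y box match alone. H2-Ob also held 1 Y box match and no X box match. Of the 2 H2-DMa windows, 1 held 1 Y box match and no X box match, and the other held neither box. Both lie inside the gene, from chr17:34122582 and chr17:34125268, whereas its record starts at 34119693. They therefore say nothing of the letters at that start. The Ctss window held neither as well. Of all 32851 windows in that RefSeq set, 0.968% held the X box core, 37.41% the Y box and 0.3866% both, so the Y box letters alone are common. A match is a description of letters and not of binding, and a window without one says only that these exact letters are not in it.

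Median signals of the arrays lay between 200.05 and 229.3, and arrays of a group correlated at a Pearson r of 0.965 to 0.979, computed across probe sets, which do not vary independently. With 3 arrays per group, their number limits how precise any value can be. Markers of the labelled tissue were bright in every array, with Sftpc of alveolar type 2 cells at 27216.3 to 40838.8 and Scgb1a1 of club cells at 24982.7 to 37184.5. Tlr4 itself ranged from 182.8 to 299.4 in HeJ lungs and from 160.6 to 291.3 in OuJ lungs, which checks no label, since the mutation is not a loss of transcript. The sample codes fall into 3 series, with all air and 6 h lungs in one, HeJ 24 and 48 h lungs in another and OuJ 24 and 48 h lungs in the last. At 24 and 48 h the effect of ozone and of code series therefore cannot be told apart. The ratio of 5' to 3' Gapdh probes, a sign of RNA integrity, was 0.497 to 0.944 in HeJ lungs and 0.781 to 1.03 in OuJ lungs. The highest HeJ value came from 24 h replicate 1, and the other 11 HeJ arrays, at 0.714 or less, lay below every OuJ array. In air the ratio was 0.511 to 0.621 in HeJ lungs and 0.781 to 0.933 in OuJ lungs, so it moves with strain, and its part in the strain comparisons and the other results was not tested.

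The 6 tested genes other than Ctss all had lower mean levels after 24 and 48 h of ozone than in air in both strains, and Ctss did not. Each change is a difference of mean log2(signal + 16) ± SE between groups of 3 arrays, on a scale that understates changes of dim genes. An adjusted p below 0.05 counts as passing (limma, Benjamini-Hochberg over the 8008 genes). In HeJ lungs 2 of 7 genes passed as lower at 24 h, Cd74 and H2-DMa, where 3.96% of all genes tested were lower and 7.11% passed in either direction. At 48 h 4 of 7 passed as lower in HeJ lungs, H2-Aa, H2-Eb1, Cd74 and H2-DMa, against 6.42% lower and 12.1% in either direction among all genes. In OuJ lungs H2-Eb1 and H2-DMa passed as lower, 2 of 7 at 24 h and the same 2 of 7 at 48 h. The shares of all genes were 3.41% lower and 6.57% in either direction at 24 h, and 4.21% lower and 7.9% in either direction at 48 h.

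Averaged over both strains, 5 of 7 genes were lower at 24 h (all but H2-Ab1 and Ctss), where 9.27% of all genes were lower and 16.4% passed in either direction. At 48 h 4 of 7 passed as lower in the strain mean (H2-Aa, H2-Eb1, Cd74 and H2-DMa), against 11.4% lower and 20.2% in either direction. The median change of the 7 genes was -0.48 at 24 h and -0.38 at 48 h in the strain mean, where the medians of all genes were -0.029 and -0.028. Ciita needs separate counting, because it passed the signal filter only through 6 arrays above 218.3, of which 5 were air arrays. Among the other 6 genes, 4 passed as lower at 24 h and 4 at 48 h in the strain mean. Their median change was -0.43 at 24 h and -0.44 at 48 h, so the smaller median of the 7 genes at 48 h was not seen without Ciita. All comparisons with air within 1 strain use the same 3 air lungs. Sample codes of 4 HeJ arrays (air replicate 2, 6 h replicate 2, and 24 h replicates 1 and 3) carry a suffix that the labels do not explain. Without these 4 arrays, which leaves 1 HeJ 24 h array assumed to vary like the other groups, 0 of 7 genes passed in HeJ lungs at 24 h, 1 of 7 in OuJ lungs at 48 h and 2 of 7 in the strain mean at 24 h.

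At 6 h no member passed in either strain. In HeJ lungs 0 of 7 passed, where 0.025% of all genes were lower and 0.0375% passed in either direction, and in OuJ lungs 0 of 7 passed, where the shares were 0.05% and 0.137%. At an unadjusted p under 0.05 in limma, 2 genes were lower in HeJ lungs, Cd74 and H2-DMa, and 2 in OuJ lungs, H2-DMa and Ciita. That looser threshold was met in either direction by 721 of all 8008 genes in HeJ lungs and by 837 in OuJ lungs. In the strain mean 0 of 7 passed beside 0.387% lower and 1.17% in either direction, and H2-DMa came nearest at -0.48 ± 0.12 (adjusted p = 0.0531). That value passed without any 1 of 4 arrays, with adjusted p = 0.00645 without HeJ 6 h replicate 1, 0.0317 without OuJ air replicate 3, 0.0339 without HeJ air replicate 3 and 0.0451 without OuJ 6 h replicate 2. Leaving out HeJ 6 h replicate 1 also took Cd74 in HeJ lungs to -0.58 (adjusted p = 0.0195) and Ciita in the strain mean to -0.61 (adjusted p = 0.0356).

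**Figure D1:**
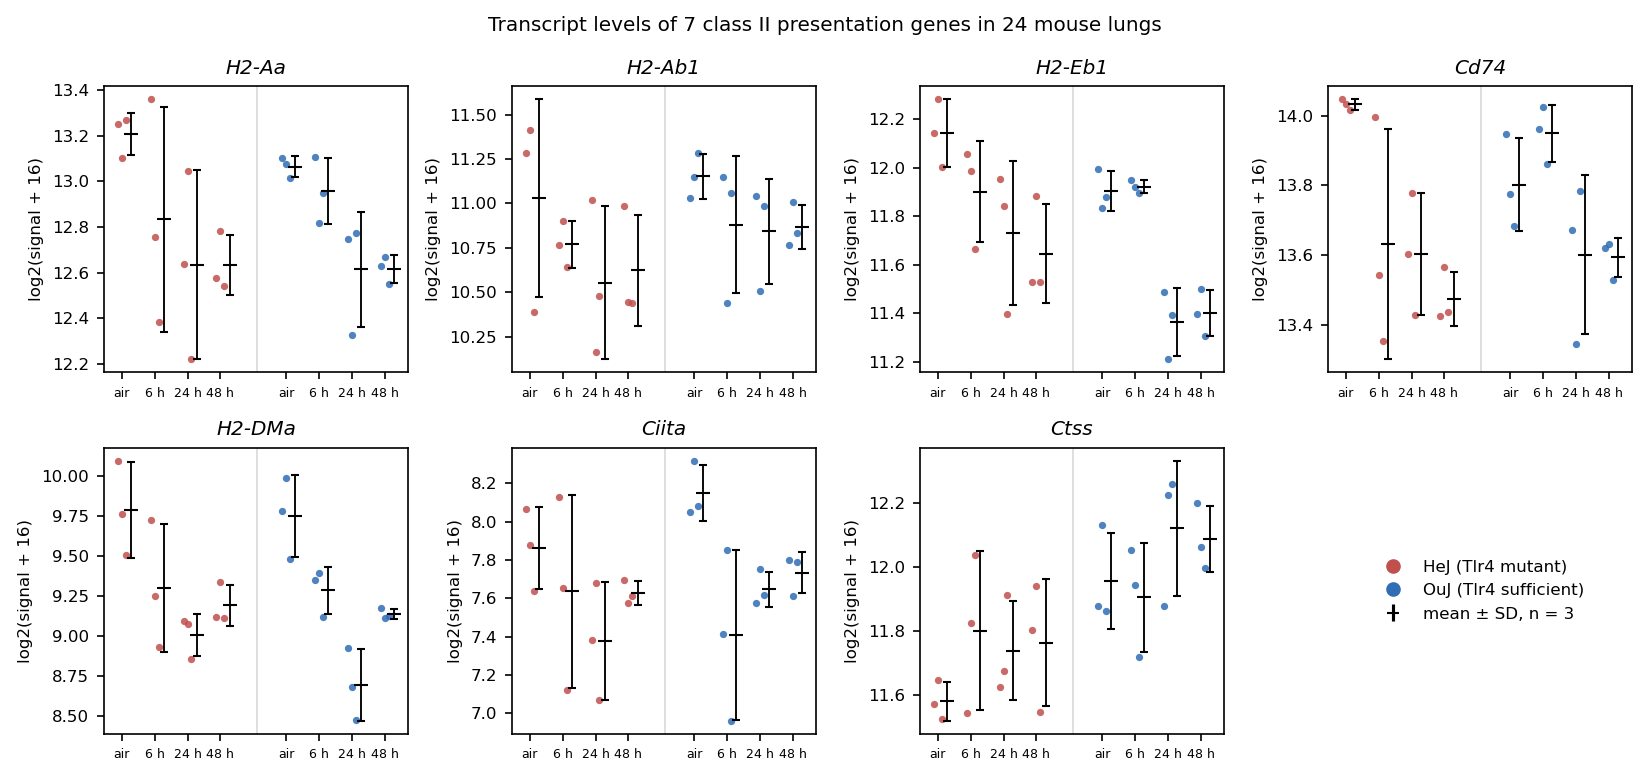
Level of each of the 7 tested genes, as log2(signal + 16) on the vertical axis with its own range per panel, in HeJ lungs (red, left) and OuJ lungs (blue, right) in air and after 6, 24 and 48 h of ozone. Points are single lungs and bars are the mean ± SD of 3; H2-DMa shows the widest gap between air and 24 h, and Ctss none in the same direction.

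H2-DMa, the alpha chain of the peptide exchange factor H2-DM, had the largest change of the 7 genes at 24 h in each strain. In HeJ lungs its signals were 1078, 851.3 and 709 in air, 829.8, 591.4 and 471.9 at 6 h, 530.4, 521.6 and 446.7 at 24 h, and 539.3, 631.3 and 537 at 48 h. In OuJ lungs they were 864.7, 999.7 and 697.3 in air, 635, 655.6 and 538.6 at 6 h, 469.1, 393.9 and 339.5 at 24 h, and 560.3, 537.4 and 541.4 at 48 h. Every 24 and 48 h lung lay below every air lung of its strain, and in OuJ lungs the 6 h values did too. In HeJ lungs H2-DMa fell by 0.78 ± 0.17 at 24 h (adjusted p = 0.00717) and by 0.60 ± 0.17 at 48 h (adjusted p = 0.0256). The OuJ level fell by 1.06 ± 0.17 at 24 h (adjusted p = 0.000534), to 0.48 times the air level, and by 0.61 ± 0.17 at 48 h (adjusted p = 0.029). The OuJ 24 h call held in all 19 alternative settings run, whereas the OuJ 48 h call was lost without any 1 of 5 arrays (all but air replicate 3), with adjusted p = 0.0689 to 0.145.

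In both strains the mean 48 h level of H2-DMa stood above the mean 24 h level. The difference was 0.44 ± 0.17 in OuJ lungs (adjusted p = 0.49) and 0.18 ± 0.17 in HeJ lungs, and neither passed. For HeJ lungs, the 24 h call was lost without air replicate 1 (-0.63, adjusted p = 0.0509). The HeJ 48 h call was lost without air replicate 1 (-0.44, adjusted p = 0.152), air replicate 2 (0.0605), 48 h replicate 1 (0.0842) or 48 h replicate 3 (0.0821). Without the 4 suffixed arrays the H2-DMa calls were lost in HeJ lungs at 24 h (-0.73, adjusted p = 0.317) and 48 h (-0.61, adjusted p = 0.0813) and in OuJ lungs at 48 h (-0.61, adjusted p = 0.05001). Averaged over both strains, H2-DMa fell by 0.92 ± 0.12 at 24 h (adjusted p = 1.77e-05) and by 0.61 ± 0.12 at 48 h (adjusted p = 0.00103), and both of these calls held in all 25 settings run.

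H2-Eb1, the beta chain of the I-E class II molecule, fell in OuJ lungs at both late times. Its HeJ signals were 4504.9, 4969.9 and 4087.6 in air, 4238.4, 4044.8 and 3227.9 at 6 h, 3950.6, 3654.9 and 2676.3 at 24 h, and 2936.7, 3761.5 and 2934.7 at 48 h. Its OuJ signals were 4062.8, 3638.5 and 3748.2 in air, 3935.3, 3858.2 and 3793.3 at 6 h, 2852.5, 2351.2 and 2670.3 at 24 h, and 2677.7, 2875.9 and 2515.4 at 48 h. In OuJ lungs the 6 h values sat among the air values and the late values well below them, while HeJ lungs declined in smaller steps with more scatter at 24 h. The HeJ change was -0.41 ± 0.13 at 24 h (adjusted p = 0.0588) and -0.50 ± 0.13 at 48 h (adjusted p = 0.0155). In OuJ lungs it fell by 0.54 ± 0.13 at 24 h (adjusted p = 0.0138) and by 0.50 ± 0.13 at 48 h (adjusted p = 0.0193).

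Averaged over both strains, H2-Eb1 fell by 0.48 ± 0.09 at 24 h (adjusted p = 0.00101) and by 0.50 ± 0.09 at 48 h (adjusted p = 0.000511), calls that held in all 25 settings run. The OuJ 24 h call was lost without air replicate 1 (adjusted p = 0.0713) or 24 h replicate 2 (0.0704), and the OuJ 48 h call without air replicate 1 (0.0847), 48 h replicate 1 (0.0583) or 48 h replicate 3 (0.097). The HeJ 48 h call was lost without air replicate 2 (0.0765), 48 h replicate 1 (0.0724) or 48 h replicate 3 (0.0693), and H2-Eb1 at 24 h passed in HeJ lungs without 24 h replicate 1 (0.0377). With the replicate number as a block, H2-Eb1 in HeJ lungs at 24 h passed as well (adjusted p = 0.0328).

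H2-Aa, the alpha chain of the I-A molecule, was lower in every late lung than in air. In HeJ lungs its signals were 9752.9, 8770.2 and 9847.5 in air, 10509.3, 6896.4 and 5321.8 at 6 h, 6360.7, 8442.6 and 4751.1 at 24 h, and 6094.2, 7030 and 5941 at 48 h. In OuJ lungs they were 8776.1, 8634.1 and 8252.2 in air, 8813.5, 7209.9 and 7903.8 at 6 h, 6860.6, 5113.5 and 6990.5 at 24 h, and 6316.8, 6495.3 and 5976.4 at 48 h. No 24 or 48 h value reached the air values of its strain, and the HeJ 6 h and 24 h lungs were the most scattered. In HeJ lungs the change was -0.57 ± 0.19 at 24 h (adjusted p = 0.0624) and -0.57 ± 0.19 at 48 h (adjusted p = 0.0452). The OuJ change was -0.45 ± 0.19 at 24 h (adjusted p = 0.166) and -0.45 ± 0.19 at 48 h (adjusted p = 0.15).

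The HeJ 48 h call of H2-Aa was lost in 10 of 19 settings. These were leaving out any 1 of the 6 arrays compared (adjusted p = 0.0589 to 0.13), median centring (0.0821), no filter (0.0775), every probe set tested as its own row (0.0511) and no intensity trend (0.0646). The HeJ 24 h change passed without 24 h replicate 2 (-0.78, adjusted p = 0.0125), when its probe sets were averaged (-0.58, adjusted p = 0.040) and with array weights (-0.59, adjusted p = 0.0422). In OuJ lungs at 48 h the H2-Aa change passed with only the groups compared in the fit (-0.45, adjusted p = 0.00973) and with array weights (-0.45, adjusted p = 0.0371). Averaged over both strains, H2-Aa fell by 0.51 ± 0.13 at 24 h (adjusted p = 0.00923) and by 0.51 ± 0.13 at 48 h (adjusted p = 0.00702). The strain mean at 24 h was lost without the 4 suffixed arrays (-0.33, adjusted p = 0.218). Its other probe set moved the same way, by -0.43 ± 0.14 at 24 h (adjusted p = 0.0367) and -0.45 ± 0.14 at 48 h (adjusted p = 0.0232) in the strain mean, where every kept probe set was tested as its own row.

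H2-Ab1, the beta chain that pairs with H2-Aa, passed in no comparison. Its HeJ signals were 2476.4, 2716 and 1325.7 in air, 1723.1, 1897.3 and 1580.9 at 6 h, 2058.4, 1131.8 and 1409.8 at 24 h, and 2009.9, 1375.5 and 1373.6 at 48 h. Its OuJ signals were 2074.7, 2249.8 and 2476.1 in air, 2253.4, 1371.1 and 2112.7 at 6 h, 2091.5, 1436.6 and 2013.3 at 24 h, and 1726, 2040.8 and 1806.2 at 48 h. One HeJ air lung (replicate 3) was lower than all HeJ lungs but the lowest 24 h one, so the HeJ groups overlapped, whereas the OuJ 48 h lungs all lay below the OuJ air lungs. The HeJ change was -0.48 ± 0.24 at 24 h (adjusted p = 0.244) and -0.41 ± 0.24 at 48 h (adjusted p = 0.298), and the OuJ change was -0.31 ± 0.24 at 24 h and -0.28 ± 0.24 at 48 h.

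Without HeJ air replicate 3, H2-Ab1 passed in HeJ lungs at 24 h (-0.80, adjusted p = 0.0453) and at 48 h (-0.73, adjusted p = 0.0447), and in the strain mean at 24 h (-0.55, adjusted p = 0.0165) and 48 h (-0.51, adjusted p = 0.0207). In the strain mean at 24 h it also passed without HeJ 24 h replicate 1 (-0.51, adjusted p = 0.0435). With all arrays the strain mean was -0.39 ± 0.17 at 24 h (adjusted p = 0.116) and -0.35 ± 0.17 at 48 h (adjusted p = 0.154). The 3 probe sets of H2-Ab1, each tested as its own row, gave strain mean changes of -0.37, -0.39 and -0.45 at 24 h and of -0.24, -0.35 and -0.46 at 48 h, and none of the 3 passed. The mean of the 3 probe sets did pass, at -0.40 for 24 h (adjusted p = 0.0278) and -0.35 for 48 h (adjusted p = 0.049). Whether the probes match the C3H alleles of these polymorphic genes was not tested, and no level was set against that of another probe set.

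Cd74, the invariant chain, was bright throughout. In HeJ lungs its signals were 16910.5, 16750.4 and 16555 in air, 16313.9, 11928.2 and 10445.4 at 6 h, 12431.2, 14028.1 and 11014.7 at 24 h, and 10987.5, 12099.7 and 11062.4 at 48 h. In OuJ lungs they were 15776.4, 14012.2 and 13139.4 in air, 15950, 16646.9 and 14865.3 at 6 h, 13039.8, 10399.5 and 14096.7 at 24 h, and 12581.8, 12673.5 and 11796.4 at 48 h. Every ozone lung of HeJ mice lay below all 3 HeJ air lungs at each time, while in OuJ lungs only the 48 h group was clear of air. In HeJ lungs Cd74 fell by 0.43 ± 0.13 at 24 h (adjusted p = 0.0437) and by 0.56 ± 0.13 at 48 h (adjusted p = 0.00591). The OuJ changes were -0.20 ± 0.13 at 24 h (adjusted p = 0.404) and -0.21 ± 0.13 at 48 h (adjusted p = 0.372).

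The HeJ 48 h call of Cd74 held in all 19 settings run. Its HeJ 24 h call was lost in 9 of 19, among them leaving out any 1 of air replicates 1, 2 and 3 (adjusted p = 0.102, 0.10 and 0.0936) or of 24 h replicates 1 and 3 (0.101 and 0.181). Averaged over both strains, Cd74 fell by 0.31 ± 0.09 at 24 h (adjusted p = 0.0191) and by 0.38 ± 0.09 at 48 h (adjusted p = 0.00375). The strain mean at 24 h was lost without OuJ air replicate 1 (0.0552), OuJ 24 h replicate 2 (0.0609) or HeJ 24 h replicate 3 (0.0584), with median centring (0.0559) and without the 4 suffixed arrays (0.281), and the one at 48 h held in all 25 settings.

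Ciita, the class II coactivator, was dim. Its HeJ signals were 252.3, 219.6 and 183.5 in air, 264.5, 185.5 and 123.3 at 6 h, 150.5, 189.3 and 118.1 at 24 h, and 191.1, 174.6 and 179.4 at 48 h. Its OuJ signals were 249.1, 303.6 and 254.6 in air, 154.3, 215 and 108.4 at 6 h, 174.8, 199.4 and 180.4 at 24 h, and 207.2, 179.3 and 205.3 at 48 h. All 9 OuJ ozone lungs were below the OuJ air lungs, the only OuJ arrays above the filter, and the HeJ groups overlapped at each time. The change nearest the threshold in 1 strain was that of OuJ lungs at 6 h, -0.74 ± 0.23 (adjusted p = 0.162), which passed without 6 h replicate 2 (-0.96, adjusted p = 0.0433) and with array weights (-0.85, adjusted p = 0.0228).

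At 24 h Ciita changed by -0.49 ± 0.23 in HeJ lungs (adjusted p = 0.218) and by -0.50 ± 0.23 in OuJ lungs (adjusted p = 0.224), and in the strain mean it fell by 0.49 ± 0.16 (adjusted p = 0.0401). That call was lost in 14 of 24 settings, 10 of them leaving out 1 of the 12 arrays, with adjusted p up to 0.108 without HeJ 24 h replicate 3. The arrays whose loss left the call in place were HeJ air replicate 3 and HeJ 24 h replicate 2. Because Ciita passed the signal filter mostly through air arrays, the filter favoured a fall at every time. The Ciita calls therefore lend a fall no support. At 48 h the strain mean was -0.33 ± 0.16 (adjusted p = 0.171). A second Ciita probe set stayed between 52.9 and 118.8 in all arrays, below the filter, and its strain mean change without a filter was -0.084 ± 0.19 at 24 h.

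Ctss, the protease that trims the invariant chain, went its own way. Its HeJ signals were 3027.4, 3191.2 and 2932.1 in air, 2971.2, 3612.3 and 4190.5 at 6 h, 3146.3, 3258.2 and 3845.6 at 24 h, and 3557.8, 3916.7 and 2980.1 at 48 h. Its OuJ signals were 3755.4, 4471.3 and 3707.1 in air, 4237.6, 3923 and 3359.7 at 6 h, 3750, 4779.8 and 4893.5 at 24 h, and 4693.2, 4263 and 4078.7 at 48 h. Ozone and air lungs overlapped at every time in both strains. Its strain mean change was 0.16 ± 0.09 at 24 h (95% interval -0.034 to 0.36, adjusted p = 0.267) and 0.16 ± 0.09 at 48 h (-0.038 to 0.35, adjusted p = 0.266). In air the HeJ level minus the OuJ level was -0.38 ± 0.13, which did not pass (adjusted p = 0.173).

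H2-DMb1 encodes the beta chain of H2-DM, and its brighter probe set also reads H2-DMb2. In HeJ lungs that probe set gave 1496, 1637.7 and 1423.8 in air, 1674.5, 1255.5 and 945.3 at 6 h, 1257.2, 1074.7 and 886.3 at 24 h, and 1144.2, 1176.2 and 1000.3 at 48 h. OuJ lungs gave 1643.7, 1678.8 and 1454.9 in air, 1745.1, 1804.2 and 1652.7 at 6 h, 1212.2, 1030.9 and 1005.4 at 24 h, and 1456, 1086.1 and 1351.5 at 48 h. The late lungs were below the air lungs in both strains except for OuJ 48 h replicate 1, which exceeded 1 air lung by a narrow margin. Tested as its own row, it changed by -0.51 ± 0.16 in HeJ lungs at 24 h (adjusted p = 0.0546) and by -0.45 ± 0.16 at 48 h (adjusted p = 0.0697). In OuJ lungs it fell by 0.55 ± 0.16 at 24 h (adjusted p = 0.0425) and changed by -0.30 ± 0.16 at 48 h (adjusted p = 0.304). The strain mean fell by 0.53 ± 0.11 at 24 h (adjusted p = 0.00229) and by 0.38 ± 0.11 at 48 h (adjusted p = 0.0205), with the transcripts of the 2 genes not separable.

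The second shared H2-DMb1 and H2-DMb2 probe set ranged from 82.2 to 230.5 and was below the filter. Without a filter its strain mean was -0.59 ± 0.16 at 24 h (adjusted p = 0.0303) and -0.40 ± 0.16 at 48 h (adjusted p = 0.139). H2-Ob, the beta chain of the H2-DM inhibitor H2-O, shares its probe set with Gm20506, and signals of 10.8 to 129.2 kept it below the filter in all 24 arrays. Without a filter its strain mean change was 0.11 ± 0.40 at 24 h and -0.25 ± 0.40 at 48 h, errors too wide to show a change of the size seen for the other chains.

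**Figure D2:**
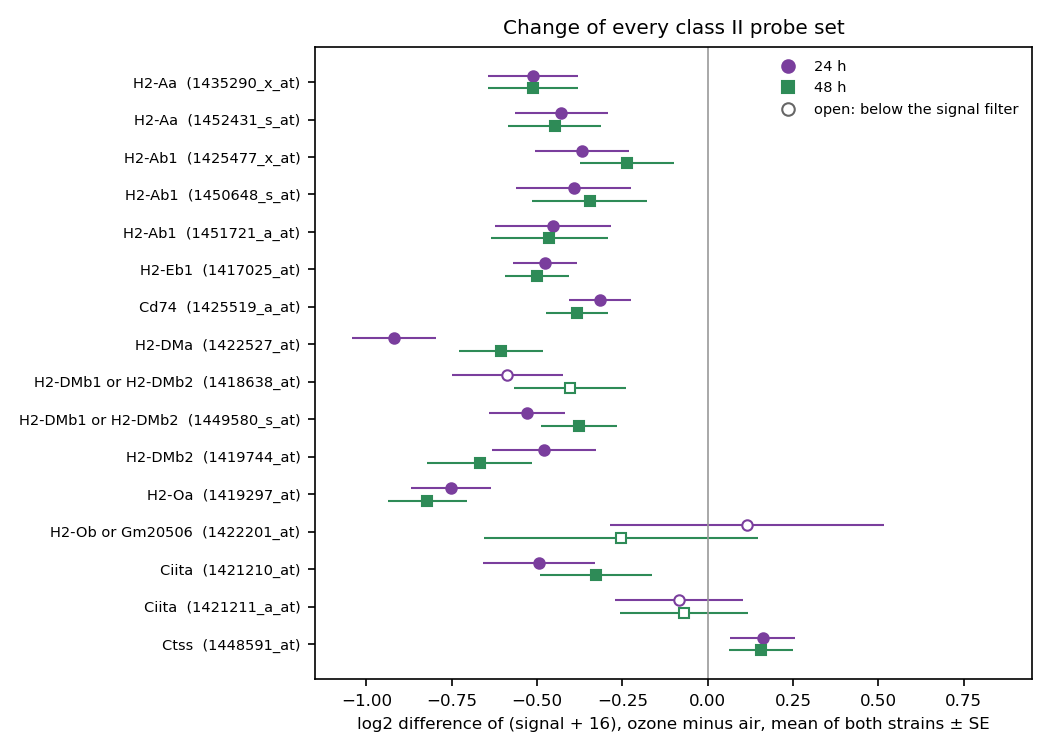
Change of each class II probe set after ozone, apart from those of H2-Ea, which are not drawn. The horizontal axis gives the difference of log2(signal + 16) from air averaged over both strains ± SE, at 24 h (purple circles) and 48 h (green squares). Open symbols are probe sets below the signal filter; all filled symbols lie left of 0 except those of Ctss, at 0.16 for both times.

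H2-Oa, the alpha chain of H2-O and the partner of H2-Ob, is not a member but was measured by a probe set of its own. It was lower in all 4 late comparisons, with changes in HeJ lungs of -0.75 at 24 h (adjusted p = 0.00596) and -1.08 at 48 h (adjusted p = 0.000143), and in OuJ lungs of -0.75 at 24 h (adjusted p = 0.00599) and -0.56 at 48 h (adjusted p = 0.0332). H2-DMb2 by its own probe set was lower in HeJ lungs at 48 h (-0.75, adjusted p = 0.0241). These were the 2 of 5 other class II chain and chaperone genes listed that could be tested, and the 3 probe sets of H2-Ea stayed at or below 175.9.

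The change after ozone was then compared between the strains, the question the Tlr4 mutant addresses. No member passed the test of a difference in its change between HeJ and OuJ lungs at any time. At 6 h 0 of 7 passed in this test, where 0.0125% of all genes passed in either direction, at 24 h 0 of 7 beside 0.0125%, and at 48 h 0 of 7 beside 0%. Only Cd74 at 6 h had an unadjusted p under 0.05 in limma, a threshold that 460 of all 8008 genes met at 6 h. The HeJ change of Cd74, -0.40 ± 0.13, minus its OuJ change of 0.15 ± 0.13 was -0.55 (95% interval -0.92 to -0.18, unadjusted p = 0.00584, adjusted p = 0.761). At 24 h the differences, HeJ minus OuJ, ran from -0.23 for Cd74 to 0.28 for H2-DMa (95% interval -0.23 to 0.79), and at 48 h from -0.35 for Cd74 (-0.72 to 0.025) to 0.18 for Ciita. Intervals of this width do not show that the strains respond alike, and at 24 and 48 h the strains also differ in code series.

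**Figure D3:**
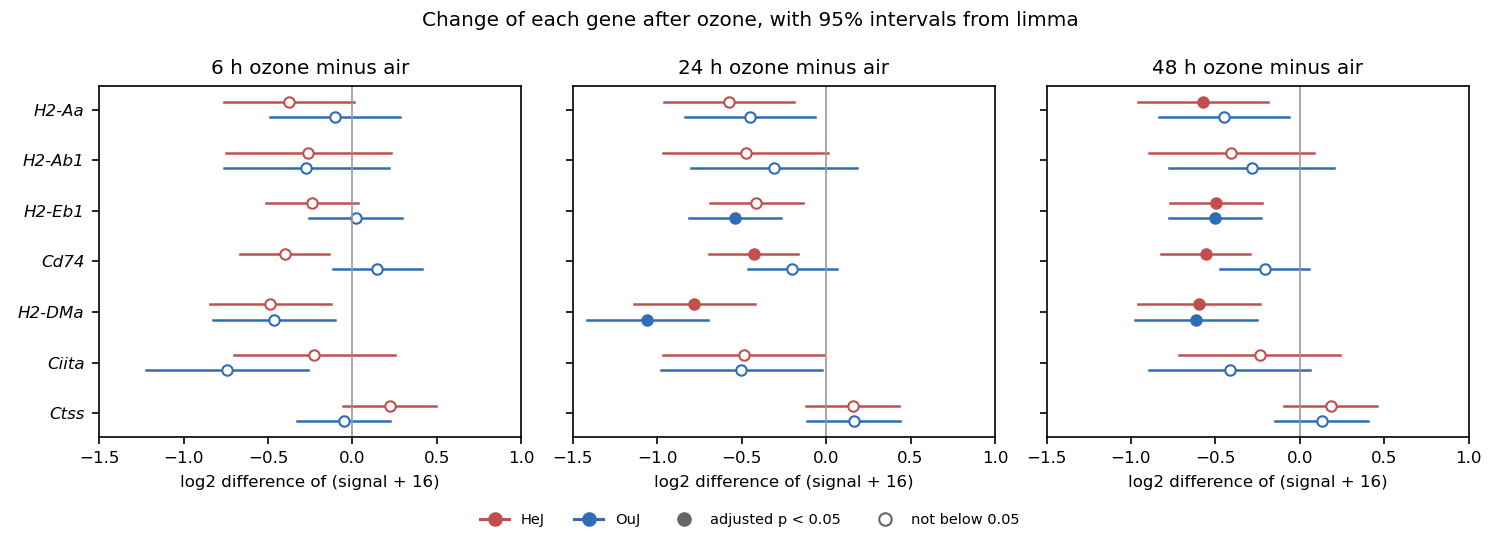
Change of each gene after 6, 24 and 48 h of ozone in HeJ lungs (red, above) and OuJ lungs (blue, below), as the difference of log2(signal + 16) from air with 95% intervals from limma on the horizontal axis. Filled symbols passed an adjusted p of 0.05; none did at 6 h, and the intervals of the strains overlap for every gene at 24 and 48 h.

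In air 0 of 7 genes passed between the strains, HeJ against OuJ, where 0.774% of all genes passed in either direction. Ctss alone had an unadjusted p under 0.05 in limma, a threshold that 1138 of all 8008 genes met. The mean level in HeJ lungs was above that in OuJ lungs for Cd74 (0.23 ± 0.13) and H2-Eb1 (0.24 ± 0.13), with adjusted p = 0.437 and 0.431. Between 48 and 24 h 0 of 7 passed in HeJ lungs beside 5.46% of all genes, and 0 of 7 in OuJ lungs beside 0.15%. H2-DMa in OuJ lungs was the only one under an unadjusted p of 0.05 in limma, a threshold that 639 of all 8008 genes met in OuJ lungs. Ordering the 8 groups by level put HeJ air first for H2-Aa, H2-Eb1, Cd74 and H2-DMa and OuJ air first for H2-Ab1 and Ciita. For Ctss OuJ 24 h was first and HeJ air last. No difference between neighbours in these orders passed, the smallest adjusted p being 0.185, for the step from OuJ air to HeJ 6 h in H2-DMa.

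Counts of non-overlapping groups gave a similar picture without a test. In HeJ lungs all 3 ozone lungs lay below all 3 air lungs for 1 of 7 genes at 6 h, where 7.03% of all genes did so, for 4 of 7 at 24 h (13.6%) and for 4 of 7 at 48 h (17.1%). In OuJ lungs the counts were 2 of 7 at 6 h (9.03%), 4 of 7 at 24 h (15%) and 6 of 7 at 48 h (17.3%). The OuJ counts include Ciita at each time, which exceeded the signal filter in all 3 OuJ air arrays and in no OuJ ozone array. The filter thus favoured its separation, and it lends these counts no support. Apart from Ciita they held H2-DMa at 6 h, and H2-Aa, H2-Eb1 and H2-DMa at 24 h. At 48 h they held H2-Aa, H2-Ab1, H2-Eb1, Cd74 and H2-DMa.

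Across the 24 lungs H2-Aa, H2-Eb1, Cd74 and H2-DMa had a Pearson r of 0.65 to 0.89 with each other. For H2-Ab1 the r was 0.26 to 0.39 with these genes and Ciita, and for Ctss it was -0.61 to 0.036 with the other 6 genes. Of 21 pairs of the 7 genes, 16 had a Pearson r above 0, with a median of 0.33 and a highest of 0.89, for H2-Aa with Cd74. The lowest was -0.61, for H2-Eb1 with Ctss. As deviations from the group means the median was again 0.33 and 14 of 21 pairs were above 0, with H2-Ab1 at 0.047 with H2-Aa, 0.0098 with Cd74 and -0.094 with Ciita. These points share arrays and scaling, and the values are a description.

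The 8 genes outside the list with the pattern most like the mean of the 7 standardized members were Evl, Epha1, Psmb8, Nkg7, Tnfsf10, Gbp7, Rac2 and Gamt, with Pearson r of 0.84 to 0.90 over 24 lungs among 8008 genes. Without the 2 lungs farthest from the median the r was 0.78 to 0.89, and on deviations from the group means 0.55 to 0.74. Psmb8 is an immunoproteasome subunit, Nkg7 a granule protein of NK and cytotoxic T cells, and Rac2 a GTPase of blood cells. The remaining genes are not described here, so no shared cell type or function is implied. The mean includes Ctss, which had a Pearson r of -0.39 with the mean of the other members. All 8 passed as lower in the strain mean at 24 h, where likeness to the members had chosen them.

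The wider presentation pathway was taken from lists chosen by function, with the shares of all genes given above as their background. Among regulators of class II transcription 15 of 21 genes were tested, and those that passed were all lower: 3 in HeJ lungs at 24 h, 2 at 48 h, 3 in OuJ lungs at 24 h and 2 at 48 h. Rfx5, which binds the X box, was lower in HeJ lungs at 24 h (-0.50, adjusted p = 0.0417) and in OuJ lungs at 24 h (-0.86, adjusted p = 0.000708) and 48 h (-0.71, adjusted p = 0.00378). Irf8, a factor of the myeloid and B cell lineages, was lower in HeJ lungs at 24 h (-0.56, adjusted p = 0.00843). Prdm1, which represses Ciita in plasma cells, was lower as well at 24 h, with changes of -0.51 in HeJ lungs (adjusted p = 0.0223) and -0.83 in OuJ lungs (adjusted p = 0.000543). The list's median was -0.13 in HeJ lungs and -0.22 in OuJ lungs at 24 h.

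Of the genes that supply peptides in endosomes 11 of 13 were tested, and those that passed were higher. Ctsh, a cysteine protease abundant in type 2 cells, rose in HeJ lungs by 1.07 at 24 h (adjusted p = 2.4e-05) and by 0.92 at 48 h (adjusted p = 7.72e-05), and in OuJ lungs by 0.53 at 24 h (adjusted p = 0.0161) and by 0.51 at 48 h (adjusted p = 0.017). Ctsc rose in HeJ lungs at 48 h, by 0.53 (adjusted p = 0.00884). No other gene of the list passed in either strain at these times, and its median lay between -0.045 and 0.20.

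Of the class I presentation genes 13 of 15 were tested. At 24 h 3 passed as lower in HeJ lungs (Tapbp, Psmb10 and Psme1) and 3 in OuJ lungs (Tap1, Psmb8 and Psmb10). At 48 h 3 passed as lower in HeJ lungs and 4 in OuJ lungs, with Calr, an endoplasmic reticulum chaperone, higher in HeJ lungs by 0.62 (adjusted p = 0.0039). Tap1, a subunit of the peptide transporter, was lower at 48 h, with changes of -0.67 in HeJ lungs (adjusted p = 0.00469) and -0.82 in OuJ lungs (adjusted p = 0.00138). Of the costimulatory genes 5 of 10 were tested, and in the strain mean at 24 h 3 were lower: Cd40 at -0.51 (adjusted p = 0.0182), Cd274 at -0.48 (adjusted p = 0.0273) and Icosl at -0.65 (adjusted p = 0.00696).

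Markers of B cells fell beside the class II genes, with larger median changes. Of 15 listed 11 were tested. In HeJ lungs 8 were lower at 24 h and 9 at 48 h, with medians of -1.01 and -0.91, and in OuJ lungs 10 were lower at 24 h and 7 at 48 h, with medians of -1.46 and -0.90. Cd79a, a chain of the B cell receptor complex, was lower at 24 h, with changes of -1.47 in HeJ lungs (adjusted p = 0.000432) and -1.78 in OuJ lungs (adjusted p = 4.48e-05). The summed signal of the 11 markers in HeJ lungs was 5236.5 to 6627.9 in air, 3674 to 4769.2 at 6 h, 2311.8 to 3284.2 at 24 h and 2472.7 to 3090.7 at 48 h. The OuJ sum was 4727.8 to 5958.6 in air, 3166.2 to 4934 at 6 h, 1834.9 to 2483.1 at 24 h and 2678.4 to 3108.9 at 48 h. Late groups and air did not overlap in either strain. B cells make class II molecules, and their part in the fall of the class II genes was not tested.

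Of 12 T and NK cell markers 6 were tested, and those that passed were lower: 2 in HeJ lungs at 24 h and 5 at 48 h, and 4 in OuJ lungs at 24 h and 1 at 48 h. Their summed signal in HeJ lungs was 1887 to 2507.1 in air, 887.2 to 1937.9 at 6 h, 809.4 to 1575.8 at 24 h and 720 to 1053.3 at 48 h. In OuJ lungs it was 2420.3 to 3193.7 in air, 1610.8 to 2375.8 at 6 h, 953.9 to 1069 at 24 h and 1332 to 1462.2 at 48 h. Mouse T and NK cells are not known for making class II molecules.

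Markers of other cells that make class II molecules gave mixed values. Of 14 dendritic cell markers 5 were tested, and Ccl17, a chemokine of dendritic cells, rose in HeJ lungs by 1.37 at 24 h (adjusted p = 5.06e-05) and by 1.27 at 48 h (adjusted p = 6.87e-05), and in OuJ lungs by 1.41 at 24 h (adjusted p = 3.18e-05) and by 1.12 at 48 h (adjusted p = 0.000338). No other gene of the list passed, and its median was -0.23 in HeJ lungs and 0.16 in OuJ lungs at 24 h. Their summed signal at 24 h was 2265.4 to 2584.4 in HeJ lungs, against 2526.9 to 2776.9 in HeJ air lungs, and 2622.2 to 2879 in OuJ lungs, against 2388.8 to 2534.7 in OuJ air lungs. Of the 14, 7 had signals below the filter, among them Flt3 and Xcr1, so these cells are thinly covered.

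Of 15 macrophage and monocyte markers 10 were tested. Csf1r, the receptor of the macrophage growth factor CSF1, was lower in HeJ lungs at 24 h (-0.63, adjusted p = 0.00136) and 48 h (-0.56, adjusted p = 0.00209), and Ccr2, a monocyte receptor, was lower in OuJ lungs at 24 h (-1.31, adjusted p = 0.0369). Marco and Chil3, genes of alveolar macrophages, rose in HeJ lungs at 48 h by 2.00 and 0.80 (adjusted p = 0.00326 and 0.00395). The summed signal at 24 h was 38233.6 to 46622.9 in HeJ lungs, against 41289.7 to 43741.2 in HeJ air lungs, and 39281.4 to 50479.1 in OuJ lungs, against 36738 to 41443.6 in OuJ air lungs.

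Of 10 alveolar type 2 markers 9 were tested, and Sftpd, a surfactant protein, rose in all 4 late comparisons, by 0.30 to 0.47. Etv5 was lower in OuJ lungs at 48 h (-0.71, adjusted p = 0.0408). The summed signal at 24 h was 143450.9 to 154981.1 in HeJ lungs, against 133043.4 to 145333.8 in HeJ air lungs, and 136255.9 to 159681 in OuJ lungs, against 116965 to 146503.6 in OuJ air lungs, so the groups overlapped in both strains. No marker of any cell list with a probe set had a median signal of 0. The part of each cell type in the class II changes was not tested.

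**Figure D4:**
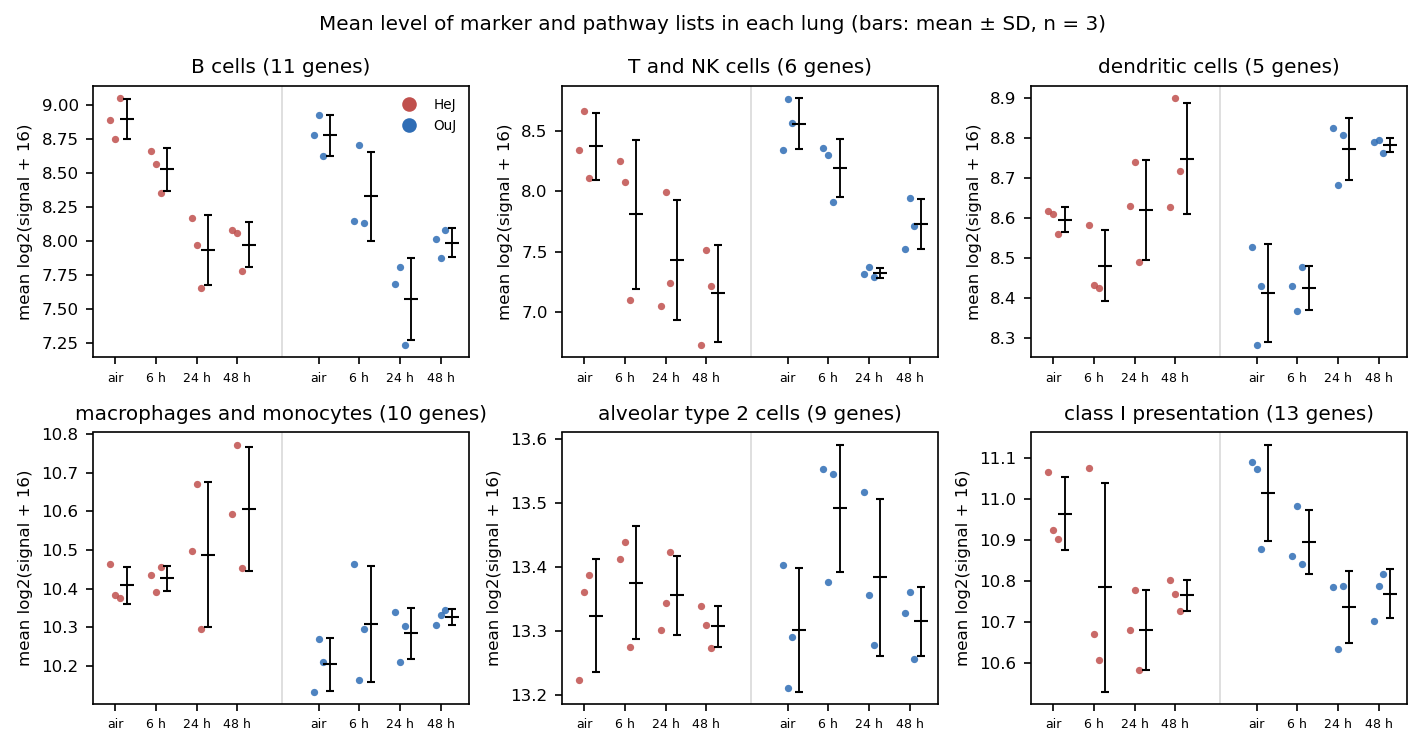
Mean log2(signal + 16) of the tested genes of 6 lists on the vertical axis, 1 point per lung, in HeJ lungs (red, left) and OuJ lungs (blue, right) in air and after 6, 24 and 48 h of ozone, with bars for the mean ± SD of 3. B cell and T and NK cell lists lie lower at 24 and 48 h than in air in both strains, while the alveolar type 2 list stays within 13.21 to 13.55.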

How the data were processed

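Signal intensity on a linear scale was made by the authors with GCOS 1.4, per the submitters' processing notes, from biotin-labelled RNA of 24 lungs on an Affymetrix mouse array, and was deposited for 22690 probe sets. Of the algorithm's settings nothing is given in the sources used here. No detection calls were used. Groups come from the labels, and all columns belong to labelled samples. The symbols are those of the platform annotation: 20380 probe sets have 1 symbol, 691 several and 1555 none, beside 64 controls.

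From the intensities log2(signal + 16) was computed. A probe set was kept when 3 or more arrays exceeded 218.3, the median of the whole table, which left 12866, and the one with the highest mean was used for each gene. In limma 3.58.1 (R 4.3.3) a linear model of the 8 group means was fitted over the 24 arrays, with an intensity trend, and 15 comparisons were drawn. P-values are two-sided and adjusted by the Benjamini-Hochberg method over 8008 genes within each comparison. The model was also run on simulated data with independent noise for each gene and array. That run held no shared array or code series effects, and its check of effect sizes left out the difference between strains. Nothing says that the mice of a group were handled separately beyond the label of biological replicate.

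The 9 members and all lists were chosen with earlier results of these data known. Named genes are the members, up to 4 passing genes per list and comparison by smallest p, and the 8 genes of highest r with the mean of the members. Alternatives were another scaling (quantile normalization, median centring), pseudocount (1 or 64), filter, probe set rule or variance trend, the replicate number as a block, array weights, a fit restricted to the groups compared, and leaving out the 4 suffixed arrays or each array in turn.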

Additional observations from a re-analysis of the deposited data

How the results depend on the processing

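Of 19 member calls against air, 8 held in every setting run: H2-DMa in OuJ lungs at 24 h, Cd74 in HeJ lungs at 48 h, H2-Eb1 and H2-DMa in the strain mean at 24 h, and H2-Aa, H2-Eb1, Cd74 and H2-DMa in the strain mean at 48 h. In HeJ lungs at 24 h, where 2 genes passed, 1 did with median centring, 1 with no filter, 1 with no intensity trend and 0 without the 4 suffixed arrays. In HeJ lungs at 48 h (4 genes) 3 passed with median centring, no filter, every probe set tested or no intensity trend, all without H2-Aa, and 3 without the suffixed arrays, where H2-DMa was lost. In OuJ lungs at 48 h (2 genes) 1 passed without those arrays and 3 with array weights or only the groups compared, H2-Aa being added, and in OuJ lungs at 6 h (0 genes) 1 passed with array weights. In the strain mean at 24 h (5 genes) 3 passed with median centring and 2 without those arrays. In the strain mean at 6 h (0 genes) 1 passed with array weights. Leaving out 1 array at a time gave 0 to 1 genes in HeJ lungs at 6 h, 0 to 3 at 24 h and 1 to 4 at 48 h. In OuJ lungs it gave 0 to 1 at 6 h, 1 to 2 at 24 h and 0 to 2 at 48 h, and in the strain mean 0 to 2 at 6 h, 3 to 6 at 24 h and 4 to 5 at 48 h. The arrays whose loss lowered these counts are named with the genes above, and the cause was not tested.

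With the replicate number as a block, 1 gene passed in the strain mean at 6 h, H2-DMa at -0.48 (adjusted p = 0.0114), and H2-Eb1 passed in HeJ lungs at 24 h. Arrays with the same number deviated from their group means with r of -0.10 to 0.20, so the numbers are not shown to pair the lungs, and the block changed no other call of a member.

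With quantile normalization the OuJ change at 6 h turned to -0.025 for Cd74 and to -0.024 for H2-Eb1. Leaving out 1 array gave a change at 6 h of -0.47 to 0.031 for Ciita in HeJ lungs, of -0.13 to 0.041 for Ctss in OuJ lungs and of -0.015 to 0.064 for H2-Eb1 in OuJ lungs. For HeJ minus OuJ in air it gave -0.32 to 0.20 for H2-Ab1 and -0.12 to 0.18 for H2-DMa. None of these passed with all arrays or in the settings that turned the sign. Signals near the filter for Ciita, and below it for H2-Ob and the dimmer H2-DMb1 probe set, limit what can be shown for those genes.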
